A study of Mus musculus with 24 samples.

Results

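The genes described here carry long-chain fatty acids into muscle fibres and break them down in the mitochondrion by beta-oxidation. Their members are 36 genes listed by name, found through the gene symbol that the platform annotation gives each array probe. A probe was named for 35 of the 36, and 32 of those had a probe detected often enough to be tested, out of 8943 genes tested in all. No probe was named for Acsl1, the main acyl-CoA synthetase of muscle. The probes of Slc27a4, a fatty acid transporter, of Cpt1a, the liver form of carnitine palmitoyltransferase 1, and of Hadha, the alpha subunit of the mitochondrial trifunctional protein, were detected on 0 of 24 arrays. These 4 genes have no value below, which says nothing of their transcripts, since a probe can fail to bind.

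The tissue was gastrocnemius, a mainly fast-fibred muscle of the calf, from male mice of the B6D2F1 hybrid strain from the National Institute on Aging's colony. Young mice of 8 months fed ad libitum (6 mice on 10 arrays) were compared with old mice of 24 months fed ad libitum (6 mice on 7 arrays) and with old mice of 24 months under caloric restriction, a reduced food intake (5 mice on 7 arrays). No group carried a transgene or drug according to the labels, and neither the degree nor the duration of restriction is given in the sources used here. Arrays whose labels carry the same name were counted as the same mouse. Whether different names mean different animals is not spelled out in the labels, so a p-value here reflects the spread between samples, which may be partly technical.

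Fatty acids reach the fibre after lipoprotein lipase frees them from circulating triglyceride, and transport proteins help them across the membrane. Acyl-CoA synthetases then join them to coenzyme A, and the carnitine shuttle moves the acyl groups into the mitochondrial matrix, where a repeating cycle of dehydrogenation, hydration, dehydrogenation and thiolysis shortens the chain. Electrons from the acyl-CoA dehydrogenases pass through the electron transfer flavoprotein to the respiratory chain. Muscle relies on this pathway at rest, in fasting and in long exercise, and slow oxidative fibres use it more than fast fibres.

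Of the 3 members past the threshold in any comparison described here, the RefSeq promoter table held a window for Acsl6 and Slc27a1, and the bases before the annotated start of each gene are shown because these members moved. Acat1, the other, had no entry. For each of Acsl6 and Slc27a1, 3 starts were listed, and only the most upstream window is printed, cut at the gene's annotated start. Capitals mark matches to motifs searched on both strands: the myogenic E-box CAGCTG, the nuclear receptor core motif AGGTCA, the estrogen-related receptor element TCAAGGTCA, which contains the core motif, and the GC box GGGCGG. Both sequences are on the plus strand of build GRCm38.p6, read 5′ to 3′. The Acsl6 window is chr11:54303574-54303804, ending 1 base before the gene's start at position 54303805. The Slc27a1 window is chr8:71568621-71568727, ending 1 base before the gene's start at position 71568728.
Acsl6: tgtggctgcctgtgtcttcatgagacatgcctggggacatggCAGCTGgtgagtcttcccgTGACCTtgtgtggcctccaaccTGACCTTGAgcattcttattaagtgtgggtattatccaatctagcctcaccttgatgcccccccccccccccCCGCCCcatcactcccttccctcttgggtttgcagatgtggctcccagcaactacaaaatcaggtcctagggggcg
Slc27a1: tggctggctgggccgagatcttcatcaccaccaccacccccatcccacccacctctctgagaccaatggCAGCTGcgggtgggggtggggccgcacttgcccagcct
In the Acsl6 window the E-box began 189 bases before the gene's start, core motifs on the reverse strand lay 170 and 148 bases before it, and the match at 148 was also a full estrogen-related receptor element. A GC box on the reverse strand lay 76 bases before the start. In the Slc27a1 window an E-box lay 38 bases before the start. Over full windows of 250 bases before each listed start, the E-box was found in 17.6% of the 34 windows of 29 members and in 13% of all 32851 windows. The core motif was found in 17.6% and 14.0%, and the full estrogen-related receptor element in 2.94% (Acsl6 alone among the members) and 0.387%. The GC box was found in 70.6% and 32.7%, in windows whose median GC content was 59.2% for the members and 52.4% for all. The site of the factor NRF1 was found in 5.88% (Etfb and Etfdh) and 3.74%. The direct repeat AGGTCANAGGTCA, bound by PPAR factors, was in 0 member windows and 0.033% of all windows, and the TATA box TATAAA in 0 member windows and 12.4% of all windows. A match describes letters in these windows and is not a measured binding site.

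The authors' signal intensities were background corrected and quantile normalized, and every level below is a log2 intensity, with the arrays of a mouse averaged. A level is comparable between mice for 1 probe and not between genes. Between 13625 and 15176 of 45281 probes were detected per array, and the number of mice limits the precision. For a typical member the SD was 0.192 between mice of a group and 0.0780 between arrays of a mouse. The muscle markers Ckm (creatine kinase) and Acta1 (skeletal alpha-actin) were detected on all 24 arrays. Of the 9 tested muscle fibre markers 0 passed the threshold in any comparison, but their directions were not evenly split. Between the ad libitum groups all 9 were lower at 24 months, 3 at an unadjusted p under 0.05 (smallest limma adjusted p = 0.0823). Between the old groups 8 were higher under restriction and 1 lower. Against young mice, restricted mice had 8 lower and 1 higher. In bulk tissue, fewer cells of a type and less RNA per cell cannot be told apart.

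Comparing old with young mice, both fed ad libitum, asks how the pathway's transcripts differ with age. Acsl6 rose and no other member passed the threshold. It was 1 of 32 members past an adjusted p of 0.05 (3.12% against 2.06% of all genes tested; limma with Benjamini-Hochberg adjustment, two-sided). At an unadjusted p under 0.05 there were 3 members, Acsl6, Acsl4 and Acad9, or 9.38% against 19.4% of all genes. In 0 members did the old mice lie wholly above or below the young mice, against 2.59% of all genes. On this normalization 17 members were higher and 15 lower in old mice, with a median log2 difference of 0.01, beside 0.02 over all genes. With scaling to the 75th percentile of each array instead, 26 were higher and 6 lower, with a median of 0.09 beside 0.06 over all genes, and Acsl6 was again the member called. The differences ran from -0.30 (Acadl) to 0.43 (Acsl6). The 95% interval lay within a 1.5-fold difference either way for 29 of the 32 members and within 1.2-fold for 8.

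Comparing restricted with ad libitum fed mice of the same old age asks how the transcripts differ with diet. By limma, 0 of 32 members passed the threshold, against 3.18% of all genes. At an unadjusted p under 0.05 there were 7 members (21.9% against 19.8% of all genes): Slc27a1, Acad9, Acat1 and Eci2 were higher in restricted mice, and Acads, Cpt2 and Decr1 lower. In 0 members did the groups not overlap, against 2.36% of all genes. Here 14 members were higher and 18 lower under restriction, with a median log2 difference of -0.03 beside -0.02 over all genes and a range from -0.34 (Acads) to 0.44 (Slc27a1). The smallest adjusted p in limma was 0.0720, for Acad9. Intervals lay within 1.5-fold for 26 members and within 1.2-fold for 4.

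Restricted old mice and young mice differ in both age and diet. Here 3 of 32 members rose, Slc27a1, Acsl6 and Acat1, and 0 fell (9.38% against 4.71% of all genes). At an unadjusted p under 0.05 there were 6 members (18.8% against 21.5% of all genes), adding Acsl3, higher in restricted mice, and Cpt2 and Acsl5, lower. Every restricted mouse lay above every young mouse for Slc27a1 and Acat1 and below for Cpt2, or 3 of 32 members (9.38%) against 5.13% of all genes. The median log2 difference was 0.01 beside -0.01 over all genes, with 18 members higher and 14 lower. On the 75th percentile scaling the split was 22 and 10, with a median of 0.06 beside 0.02. The 3 comparisons share mice, so the same member's values in them are not independent. Old ad libitum mice enter the age and diet comparisons with opposite sign. The counts of 1 and 3 changed on leaving out any 1 of several mice, as given with each gene below.

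**Figure D1:**
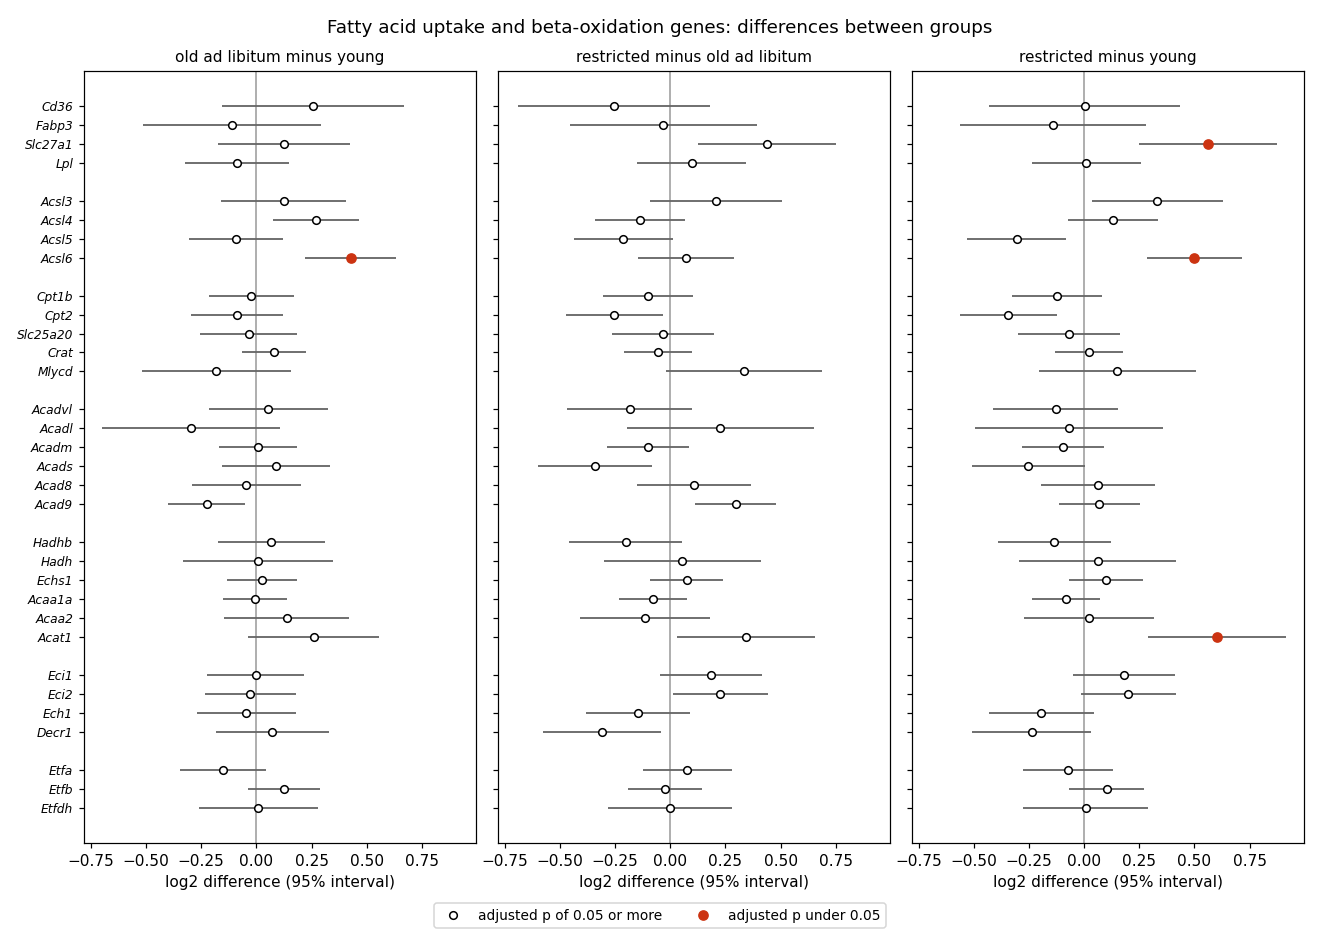
Log2 difference in intensity (horizontal axis) with its 95% interval for each of the 32 tested members (rows, grouped by role), in the 3 comparisons (panels). Filled points passed an adjusted p of 0.05: Acsl6 with age, and Slc27a1, Acsl6 and Acat1 for restricted against young mice, while most intervals cross 0.

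Among the uptake genes, Slc27a1 was the 1 of 4 tested that rose, in restricted against young mice. Slc27a1 encodes FATP1, a transport protein with acyl-CoA synthetase activity, at chr8:71568728-71587307 (GRCm38.p6). The 6 young mice had a lowest level of 9.03, a median of 9.31 and a highest of 9.46, and the old ad libitum mice 8.82, 9.45 and 9.81. Restricted mice 1 to 5 had 9.74, 9.94, 10.20, 9.77 and 9.51. The restricted mice lay above the young mice without overlap, while the old ad libitum mice spanned the young range and part of the restricted range. Restricted mice were 1.47-fold above young mice (log2 difference 0.56 ± 0.15 SE, limma adjusted p = 0.0397). Against old ad libitum mice the log2 difference was 0.44 ± 0.15 (limma adjusted p = 0.111), and with age it was 0.12 ± 0.14 (limma adjusted p = 0.671). Within each of the 4 chips the restricted minus young difference was positive, from 0.17 to 0.73, the last resting on 1 restricted array. Some mice were on several chips, so values by chip, here and below, are not independent repeats. The limma call was lost on leaving out young mouse 1, 2, 3, 4 or 5 (adjusted p from 0.0575 to 0.0870) or restricted mouse 1, 2, 3 or 4 (0.0663 to 0.121).

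Cd36, a fatty acid translocase also abundant in adipocytes and endothelium, had the smallest p of the uptake genes with age. Its levels were 6.0, 6.69 and 7.18 (lowest, median, highest) in young mice and 6.37, 6.92 and 7.27 in old ad libitum mice. Restricted mice 1 to 5 had 6.28, 6.96, 6.62, 7.03 and 6.25. The 3 groups overlapped over most of their range. The log2 differences were 0.26 ± 0.20 with age and -0.25 ± 0.21 with diet (limma adjusted p = 0.498 and 0.519). Its probe was detected on 6 of the 7 restricted arrays and on every array of the other groups. Fabp3, the cytosolic fatty acid binding protein of heart and muscle, differed by -0.11 with age and -0.03 with diet. Lpl, which encodes lipoprotein lipase, differed by -0.09 and 0.10. Adipocyte markers were present in every group: Adipoq (adiponectin) was detected on all 24 arrays, and the summed intensity of 9 tested markers ran from 4223 to 15191 in young, 4625 to 14521 in old ad libitum and 3753 to 10039 in restricted mice. Of these 9 markers 0 passed the threshold in any comparison. With their mean as a covariate in the fit, the members called numbered 1 with age, 0 with diet and 3 for restricted against young. The medians of the members in that fit were 0.004, -0.03 and 0.004. What share of the Cd36 and Lpl levels came from adipocytes was not tested.

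Of the 4 acyl-CoA synthetases tested, Acsl6 rose with age and the other members did not pass the threshold in any comparison. Acsl6 encodes a synthetase best known from brain, where it activates long polyunsaturated fatty acids; the gene lies at chr11:54303805-54364756 (GRCm38.p6). Young mice had levels of 9.78, 9.96 and 10.34 (lowest, median, highest) and old ad libitum mice 10.16, 10.44 and 10.64. Restricted mice 1 to 5 had 10.30, 10.61, 10.61, 10.43 and 10.54. Of the young mice, 1 lay within the old range and the other 5 lay below every old mouse of either diet. Old mice were 1.34-fold above young mice (0.43 ± 0.10 SE, limma adjusted p = 0.0345), and restricted mice 1.41-fold above young mice (0.50 ± 0.10, limma adjusted p = 0.0138). Restricted and old ad libitum mice differed by 0.07 ± 0.10 (limma adjusted p = 0.744), with a 95% interval from -0.14 to 0.29.

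The age difference of Acsl6 was positive within each of the 4 chips, from 0.24 to 0.62, the last resting on 1 old ad libitum array. The restricted minus young difference was also positive within each chip, from 0.38 to 0.48. The other kept Acsl6 probe, annotated to another transcript of the gene, gave 0.24 with age (limma adjusted p over probes = 0.0769) and 0.40 for restricted against young (adjusted p = 0.0114). The age call was lost on leaving out young mouse 1, 2, 3 or 4 (limma adjusted p from 0.0665 to 0.0946) or old ad libitum mouse 2, 4, 5 or 6 (0.0508 to 0.0596), and the count of members called then was 0. The log2 difference itself stayed between 0.38 and 0.50. The restricted against young call held on leaving out each of the 17 mice (limma adjusted p from 0.00319 to 0.0451).

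Acsl5, a synthetase linked to lipid storage and oxidation, had the smallest p of the synthetases with diet. Its levels were 8.5, 8.78 and 8.94 (lowest, median, highest) in young mice, 8.34, 8.69 and 8.88 in old ad libitum mice, and 8.21, 8.61, 8.46, 8.29 and 8.59 in restricted mice 1 to 5. Restricted mice sat toward the lower end, overlapping both other groups. The differences were -0.21 ± 0.11 with diet (limma adjusted p = 0.281) and -0.31 ± 0.11 against young mice (adjusted p = 0.102). The other kept Acsl5 probe gave smaller differences, -0.09 with diet and -0.07 against young mice. Acsl4, which prefers arachidonate, differed by 0.27 with age (limma adjusted p = 0.121), while its other kept probe gave -0.14. Acsl3, found on lipid droplets and the endoplasmic reticulum, differed by 0.12 with age and 0.21 with diet.

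**Figure D2:**
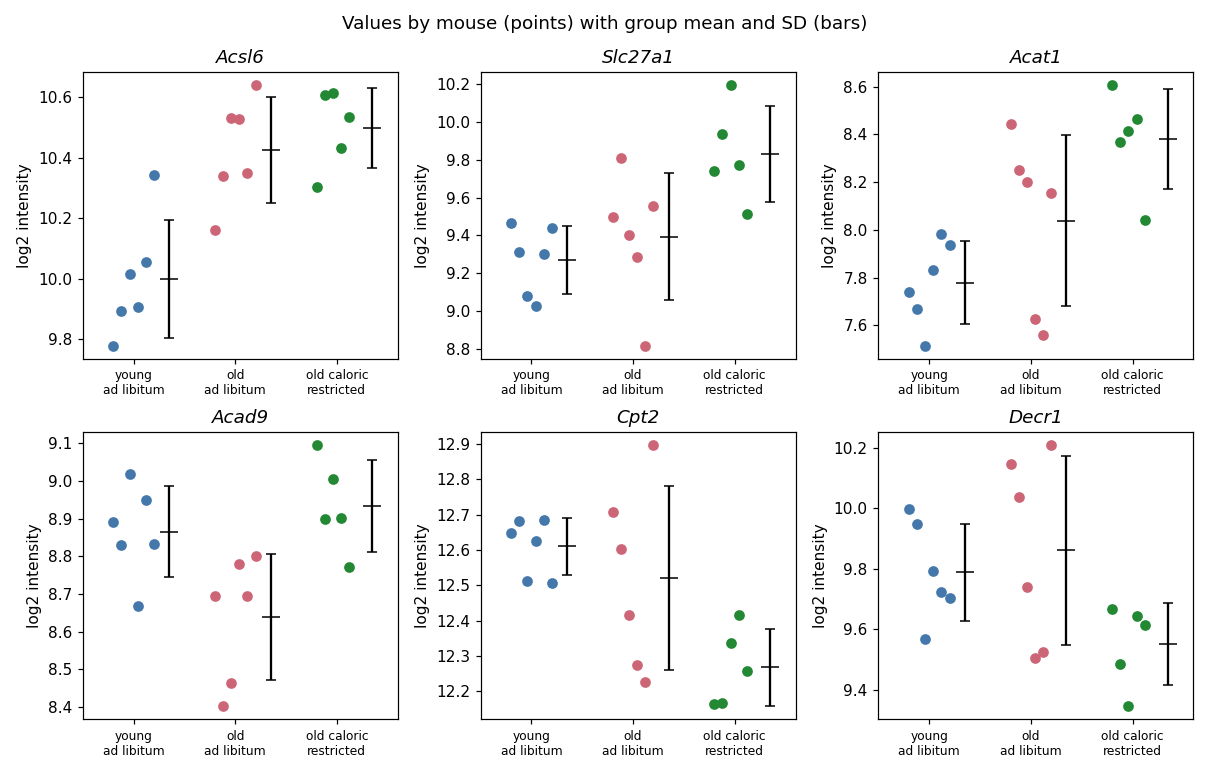
Log2 intensity (vertical axis) of 6 members in each of the 17 mice (points, left to right by mouse number within a group), with the group mean (horizontal tick) and SD (bars). For Acsl6 5 of 6 young mice lie below every old mouse, and for Slc27a1 and Acat1 the restricted mice lie above the young mice, with the old ad libitum mice spread between and across them.

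In the carnitine shuttle and its control by malonyl-CoA, 0 of 5 tested members passed the threshold in any comparison. Cpt2, the carnitine palmitoyltransferase of the inner mitochondrial membrane, had the smallest p with diet. Young mice had levels of 12.51, 12.64 and 12.69 (lowest, median, highest), old ad libitum mice 12.23, 12.51 and 12.90, and restricted mice 1 to 5 12.16, 12.17, 12.34, 12.42 and 12.26. Every restricted mouse lay below every young mouse, and the old ad libitum mice spanned most of both ranges. Restricted mice were 1.19-fold below old ad libitum mice (-0.25 ± 0.10, limma adjusted p = 0.181) and 1.27-fold below young mice (-0.34 ± 0.10, limma adjusted p = 0.0661). The 3 kept probes of Cpt2 gave -0.25, -0.18 and -0.17 with diet. Against young mice they gave -0.34, -0.34 and -0.12, so the least bright probe showed a smaller difference. On the brightest probe the restricted minus young difference was negative within each of the 4 chips. It passed the threshold against young mice in a fit on the 24 arrays, on the 2 groups alone, with a trend and robust prior, with slow fibre markers as a covariate, or without old ad libitum mouse 6.

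Mlycd encodes malonyl-CoA decarboxylase, which removes the malonyl-CoA that inhibits carnitine palmitoyltransferase 1. Its levels were 11.72, 11.92 and 12.32 (lowest, median, highest) in young mice, 11.36, 11.69 and 12.34 in old ad libitum mice, and 11.98, 11.96, 12.03, 12.50 and 12.14 in restricted mice 1 to 5. Restricted mouse 4 lay above every other mouse of the study, and the other restricted mice lay within the young range. The differences were -0.18 ± 0.16 with age and 0.33 ± 0.17 with diet (limma adjusted p = 0.564 and 0.285). Cpt1b, the muscle form of the enzyme that commits acyl groups to oxidation, differed by -0.02 with age and -0.10 with diet, with 95% intervals of -0.22 to 0.17 and -0.30 to 0.10. Slc25a20, the carnitine-acylcarnitine carrier, differed by -0.03 in both comparisons on its brightest probe, and Crat, carnitine acetyltransferase, by 0.08 and -0.06.

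Of the 6 acyl-CoA dehydrogenases, which start each cycle, 0 passed the threshold in any comparison. Acad9 had the smallest p of the group with age and with diet, in opposite directions. Both comparisons use the same old ad libitum mice, so these directions are not independent. ACAD9 is an assembly factor of respiratory complex I as well as a dehydrogenase of long-chain acyl-CoA. Young mice had levels of 8.67, 8.86 and 9.02 (lowest, median, highest), old ad libitum mice 8.40, 8.69 and 8.80, and restricted mice 1 to 5 9.10, 8.90, 9.0, 8.90 and 8.77. Old ad libitum mice lay lowest, restricted mice lay over most of the young range, and each group overlapped the others. The differences were -0.23 ± 0.08 with age (limma adjusted p = 0.150) and 0.30 ± 0.09 with diet (adjusted p = 0.0720). The other kept probe gave -0.12 and 0.21. The diet value passed the limma threshold without restricted mouse 5 (0.34, adjusted p = 0.0408) and with the chip as a fixed block over the 24 arrays (0.31, adjusted p = 0.0403).

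The other dehydrogenases handle different chain lengths. Acadvl, for very long chains, differed by 0.05 with age and -0.18 with diet, Acadm, for medium chains, by 0.01 and -0.10, and Acads, for short chains, by 0.09 and -0.34. Acads had an unadjusted p of 0.0120 with diet and a limma adjusted p of 0.126. Acadl, for long chains, differed by -0.30 and 0.23 on its brightest probe. Its other kept probes gave 0.14 and 0.22 with age and -0.10 and -0.14 with diet, the same signs as Acadvl, Acadm and Acads. Acad8, an isobutyryl-CoA dehydrogenase of valine breakdown, differed by -0.05 and 0.11.

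Of the 6 tested genes for hydration, the later dehydrogenation and thiolysis, Acat1 rose in restricted against young mice. Acat1 encodes mitochondrial acetoacetyl-CoA thiolase, which acts on short chains, in isoleucine breakdown and in ketone body use; the gene lies at chr9:53580522-53610350 (GRCm38.p6). Young mice had levels of 7.51, 7.78 and 7.98 (lowest, median, highest) and old ad libitum mice 7.56, 8.18 and 8.44. Restricted mice 1 to 5 had 8.61, 8.37, 8.42, 8.47 and 8.04. The restricted mice lay above the young mice without overlap. Of the old ad libitum mice, numbers 4 and 5 lay within the young range and the other 4 above it. Restricted mice were 1.52-fold above young mice (0.60 ± 0.15 SE, limma adjusted p = 0.0304), positive within each of the 4 chips, from 0.42 to 0.66. The differences with age (0.26 ± 0.14, limma adjusted p = 0.328) and with diet (0.34 ± 0.15, adjusted p = 0.208) did not pass. The call was lost on leaving out young mouse 1, 2, 3 or 4 (limma adjusted p from 0.0549 to 0.0724) or restricted mouse 1, 2, 3 or 4 (0.0598 to 0.0793), when the count of members called was 1.

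Hadhb, the beta subunit of the trifunctional protein, differed by 0.07 with age and -0.20 with diet. Hadh, the hydroxyacyl-CoA dehydrogenase for shorter chains, differed by 0.01 and 0.05, and Echs1, the short-chain enoyl-CoA hydratase, by 0.02 and 0.07. Acaa1a, a peroxisomal thiolase, differed by -0.01 and -0.08. Acaa2, the mitochondrial thiolase for medium and long chains, differed by 0.14 and -0.12 on its brightest probe. None of these 5 passed limma's threshold in any comparison.

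The auxiliary enzymes prepare unsaturated chains for the cycle, and 0 of 4 passed the threshold. Decr1, dienoyl-CoA reductase, had the smallest p of them with age and with diet. Young mice had levels of 9.57, 9.76 and 9.997 (lowest, median, highest), old ad libitum mice 9.50, 9.89 and 10.21, and restricted mice 1 to 5 9.67, 9.48, 9.35, 9.64 and 9.61. The restricted mice sat low, while the old ad libitum mice spanned the whole young range. The differences were 0.07 ± 0.12 with age (limma adjusted p = 0.785) and -0.31 ± 0.13 with diet (adjusted p = 0.182). The enoyl-CoA isomerases Eci1 and Eci2 differed by 0.18 and 0.23 with diet, and Ech1, a dienoyl-CoA isomerase, by -0.15, so the 4 auxiliary genes split evenly in direction.

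The electron transfer flavoprotein and its dehydrogenase take the electrons from the acyl-CoA dehydrogenases, and 0 of 3 passed the threshold. Etfa, the alpha subunit, had the smallest p of the 3 in both comparisons. Its levels were 13.41, 13.58 and 13.68 (lowest, median, highest) in young mice, 13.13, 13.48 and 13.65 in old ad libitum mice, and 13.51, 13.38, 13.49, 13.70 and 13.43 in restricted mice 1 to 5. The groups overlapped. The differences were -0.15 ± 0.09 with age and 0.08 ± 0.10 with diet (limma adjusted p = 0.379 and 0.706). Etfb, the beta subunit, differed by 0.12 and -0.02, and Etfdh, which passes the electrons to ubiquinone, by 0.01 and -0.00.

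Different probes of the same gene often gave different directions. Of the 32 tested members, 17 had several kept probes, and the brightest was used. Kept probes of both signs were found for 8 of these 17 with age (Acaa2, Acadl, Acsl4, Acsl5, Cpt1b, Cpt2, Crat and Etfdh), for 8 with diet (Acaa2, Acadl, Acsl4, Crat, Etfa, Etfdh, Hadh and Slc25a20) and for 5 in restricted against young mice (Acaa2, Acadl, Cpt1b, Crat and Etfdh). With age, the brightest Crat probe gave 0.08 and the other kept probes -0.40 and -0.29. For Slc25a20 the values were -0.03 and -0.37, and for Acaa2 0.14 against -0.28, -0.33 and -0.21. With diet, the brightest Crat probe gave -0.06 and the others 0.21 and 0.15, and Slc25a20 gave -0.03 and 0.18. The kept probes of Acsl6 agreed in sign in all 3 comparisons, and Slc27a1 and Acat1 had 1 kept probe each. With the mean of all kept probes in place of the brightest, the counts of members called were again 1, 0 and 3, while 5, 7 and 4 members changed sign and the diet median became 0.01.

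The level of most members was spread wider between old ad libitum mice than between young or restricted mice. The SD was larger between old ad libitum mice than between young mice for 30 of 32 members (93.8%, against 73.6% of all genes), and larger than in restricted mice for 30 of 32 (93.8% against 58.5%). Old ad libitum mice had the largest SD of the 3 groups in 28 members (87.5% against 49.96% of all genes). The median SD over members was 0.161 in young, 0.254 in old ad libitum and 0.148 in restricted mice, and over all genes 0.139, 0.191 and 0.170. Fabp3 had SDs of 0.16, 0.51 and 0.33 in the 3 groups, and Acadl 0.18, 0.48 and 0.39. The exceptions to the larger spread in old than in young mice were Acsl6 and Cd36. These members share mice and arrays, so their SDs are not independent, and no test was made of the difference in spread.

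**Figure D3:**
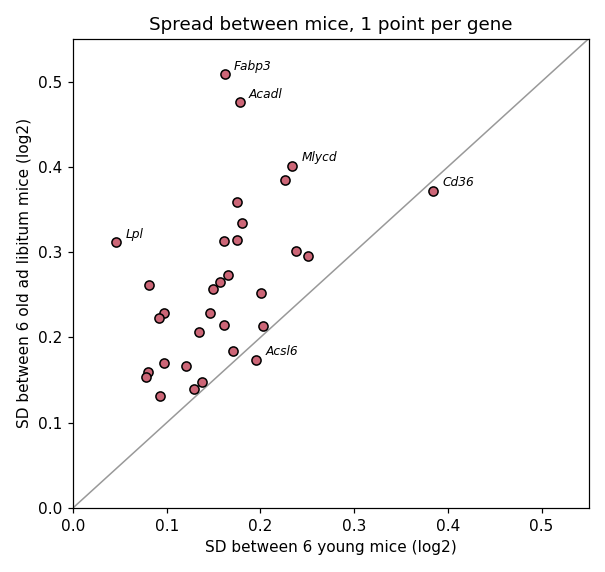
SD of the log2 intensity between the 6 young mice (horizontal axis) and between the 6 old ad libitum mice (vertical axis), 1 point per tested member, with the line of equality. For 30 of the 32 members the point lies above the line, and Acsl6 and Cd36 lie below it.

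The spread followed individual mice. Old ad libitum mouse 5 had the lowest level of its group in 18 of 32 members (56.2% against 13.1% of all genes), and mouse 6 the highest in 17 (53.1% against 22.0%). Old ad libitum mice 4 and 5 were the lowest pair of their group in 19 members (59.4% against 9.21% of all genes). Among restricted mice, mouse 5 was lowest in 19 members (59.4% against 25.0%) and mouse 4 highest in 14 (43.8% against 17.3%). Young mouse 1 was highest in 19 members (59.4% against 16.3%) and young mouse 3 lowest in 14 (43.8% against 13.4%). Averaged over the 32 members after centring each gene on its mean over 17 mice, old ad libitum mice 1 to 6 stood at 0.09, 0.15, 0.01, -0.16, -0.27 and 0.22. Young mice 1 to 6 stood at 0.13, 0.02, -0.14, -0.08, -0.03 and 0.01, and restricted mice 1 to 5 at 0.01, -0.04, 0.07, 0.13 and -0.11. The group means of -0.02 ± 0.09, 0.01 ± 0.19 and 0.01 ± 0.09 (SD, n = 6, 6 and 5 for young, old ad libitum and restricted) differed by less than the spread within any group.

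**Figure D4:**
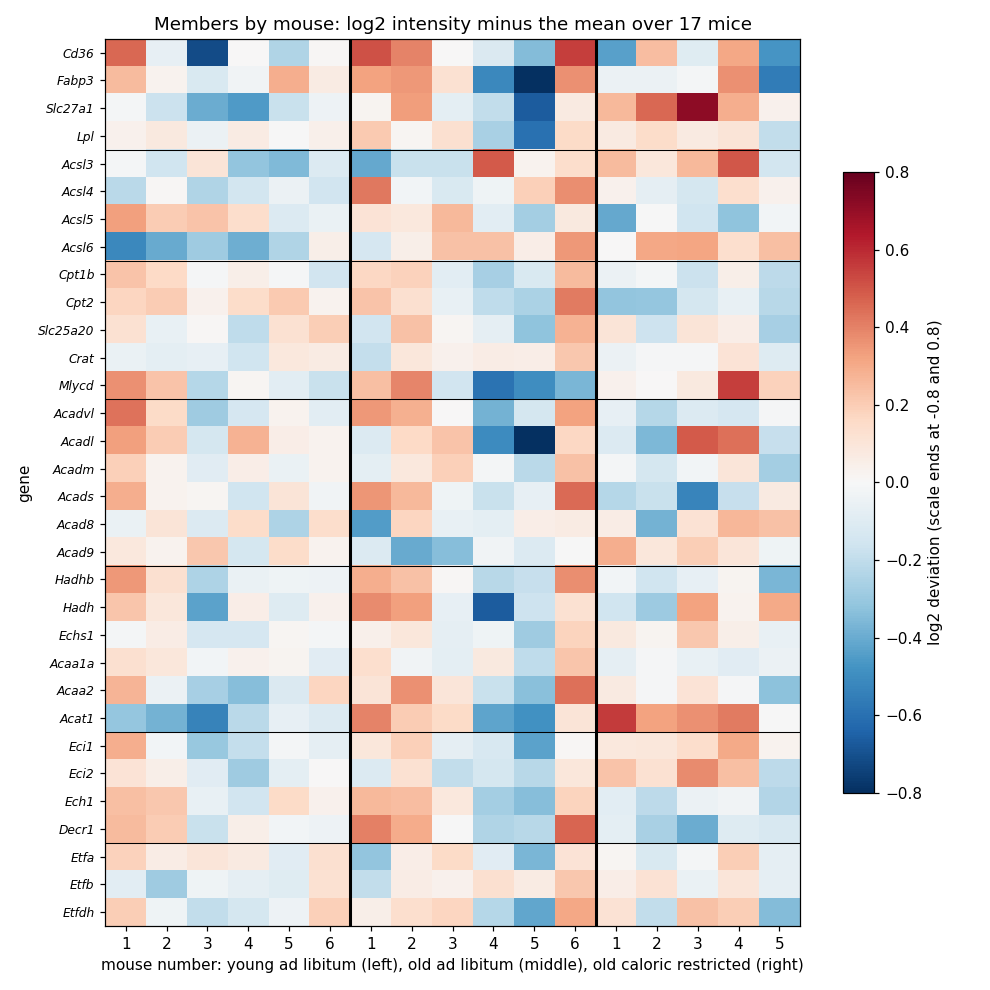
Log2 intensity of each tested member (rows) in each mouse (columns, young left, old ad libitum middle, restricted right) minus the gene's mean over 17 mice, red above and blue below, on a scale that ends at 0.8 either way. Old ad libitum mice 4 and 5 are blue in most rows and mouse 6 red, while the Acsl6 row is blue in 5 of 6 young mice.

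Markers of slow fibres varied between the same mice. Over 13 tested slow fibre markers, centred in the same way, old ad libitum mice 1 to 6 stood at 0.37, 0.77, 0.51, -1.26, -1.65 and 0.61. Young mice 1 to 6 stood at 0.33, -0.90, -1.22, 0.30, -0.19 and -1.11, and restricted mice 1 to 5 at 1.24, 1.14, 1.51, 0.71 and -1.16. Old ad libitum mice 4 and 5, restricted mouse 5 and young mouse 3 were low in both the slow fibre markers and the members, while young mice 2 and 6 were low in the markers only. Young mouse 4 and restricted mouse 2 were positive in the markers (0.30 and 1.14) and slightly negative in the members (-0.08 and -0.04). The group means of the markers were -0.46 ± 0.70 in young, -0.11 ± 1.06 in old ad libitum and 0.69 ± 1.07 in restricted mice (SD). Their summed intensity ran from 9769 to 35010, from 8283 to 44746 and from 11500 to 75884. Of the 13, 0 passed the threshold with age or diet, and 1, Myh7, the slow myosin heavy chain, rose in restricted against young mice (log2 difference 1.80 ± 0.50, limma adjusted p = 0.0490). Most of these 13 markers went the same way: 11 were higher with age, 12 with diet and 12 in restricted against young mice. Over all genes 54.2%, 44.7% and 48.3% were higher. At an unadjusted limma p under 0.05 there were 0, 2 and 5 of the markers. Their median log2 differences were 0.30, 0.75 and 0.97. How much slow fibre each sample held was not measured otherwise.

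**Figure D5:**
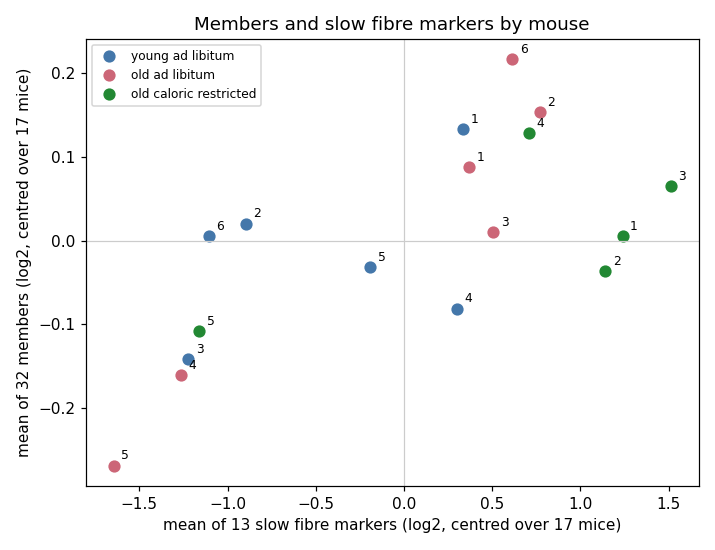
Mean of 13 slow fibre markers (horizontal axis) and mean of the 32 tested members (vertical axis) in each mouse, both log2 and centred over 17 mice, with mouse numbers beside the points. Old ad libitum mice 4 and 5, restricted mouse 5 and young mouse 3 are low on both axes, while restricted mice 1 to 3 are highest on the horizontal axis and near 0 on the vertical axis.

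With the slow fibre mean as a covariate in the fit, Acsl6 kept its calls, at 0.44 with age (limma adjusted p = 0.0306) and 0.54 against young mice (adjusted p = 0.0247). The restricted minus young differences of Slc27a1 and Acat1 became 0.34 and 0.35 (limma adjusted p = 0.145 and 0.0933), and Cpt2 passed as lower. The median of the members then was -0.03 with age, -0.09 with diet and -0.16 for restricted against young. The covariate is itself made of transcripts that differ between groups, so this fit describes the members at a like level of those markers. Of 12 fast fibre markers 0 passed the threshold in any comparison, and 9 of 12 were lower with age. Casq1, the calsequestrin of fast fibres, lay lower in every old ad libitum mouse than in every young mouse (-0.49 ± 0.14, limma adjusted p = 0.0669).

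Markers of other cells also moved with diet. Of 10 tested macrophage and myeloid markers 2 fell under restriction, Mpeg1 (-1.22) and Tyrobp (-0.72), and 0 passed in the other comparisons; their group means were 0.01 ± 0.13 in young, 0.20 ± 0.30 in old ad libitum and -0.26 ± 0.29 in restricted mice (SD). Of 11 endothelial markers 0 passed, with group means of 0.08 ± 0.05, -0.02 ± 0.23 and -0.07 ± 0.10. The part of these cells in the members' levels was not tested.

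Of 77 genes outside the list with roles in fatty acid use, 60 were tested. At an unadjusted p under 0.05 in limma there were 12 with age (20% against 19.4% of all genes). Past the adjusted threshold there were 0 of 60 with age, against 2.06% of all genes. By the same threshold 2 rose with diet (3.33% against 3.18%) and 1 rose in restricted against young mice (1.67% against 4.71%). All of these calls were among 19 tested regulators. Nrip1, which encodes RIP140, a corepressor of oxidative genes, was 1.62-fold higher in restricted than in old ad libitum mice (0.69 ± 0.15, limma adjusted p = 0.0220). Its levels ran from 6.5 to 7.06 in old ad libitum mice and from 7.08 to 7.93 in restricted mice, without overlap. It was also 1.51-fold above young mice (limma adjusted p = 0.0312). Lpin1, a phosphatidate phosphatase that also acts as a coactivator of oxidative genes, was 1.23-fold higher with diet (0.30 ± 0.08, limma adjusted p = 0.0449). With age Lpin1 differed by -0.29 ± 0.08 (adjusted p = 0.0521), with every old ad libitum mouse below every young mouse.

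The remaining lists had 0 calls in any comparison. Among 13 tested genes of peroxisomal fatty acid oxidation the smallest p was that of the thiolase gene Acaa1b with age (-1.36 ± 0.55, limma adjusted p = 0.187) and of the peroxisomal carrier Slc25a17 with diet (0.26 ± 0.10, adjusted p = 0.175). Among 10 tested genes of fatty acid handling and carnitine it was that of the carrier Slc25a29 with age (0.37 ± 0.15, limma adjusted p = 0.185). With diet it was that of Gpihbp1, which anchors lipoprotein lipase to capillaries and is also on the endothelial list (0.50 ± 0.20, adjusted p = 0.174). Among 18 tested mitochondrial acyl-CoA and ketone body enzymes it was that of Acad10 with age (0.29 ± 0.10, limma adjusted p = 0.139) and of Echdc2 with diet (-0.20 ± 0.08, adjusted p = 0.164). The median over the 60 genes was 0.06 with age, -0.02 with diet and 0.02 for restricted against young.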

How the data were processed

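RNA of 17 mice was measured on 24 Illumina bead arrays on 4 chips, each chip holding all 3 groups. Per the file headers, the deposited table gives for every array each probe's average signal intensity and its detection p-value, before normalization. GenomeStudio made these values per the submitters' processing notes, with a version not given in the sources used here. Processed values in the authors' matrix were linear intensity with column medians of 98.6 to 98.7, unlike the signals (82.9 to 119.7). Those columns correlated at 0.999 or more with the same array's signals and served as an alternative. Their centring and exact normalization stay unknown. On them 216, 298 and 441 genes passed with age, with diet and for restricted against young. With quantile normalization and no background correction 216, 297 and 441 passed, so these alternatives gave nearly the same counts.

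Background correction and quantile normalization used neqc in limma 3.58.1 (R 4.3.3, offset 16, negative controls inferred from detection p-values). Of 45281 probes, the 15268 with a detection p under 0.01 on 5 or more arrays were kept. Names came from the platform annotation where it listed a single symbol (34885 probes; 18 had several, 10378 were not listed), and 0 symbols changed through the entrez identifier. The brightest kept probe stood for a gene. Of the mice, 5 were on more than 1 array, at most 4. Their arrays were averaged, since repeated arrays correlated at 0.668 in their deviations, against 0.0448 between mice of a group. Groups were compared with lmFit and eBayes in 1 fit of 8943 genes, with Benjamini-Hochberg adjustment over all of them. Promoter windows and positions came from RefSeq tables of GRCm38.p6, a build not stated for the arrays.

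The members and gene lists were chosen with earlier results of these data known, so no list was tested as a set. The 10 other lists were peroxisomal oxidation, handling and carnitine, regulators, mitochondrial acyl-CoA and ketone body enzymes, and markers of muscle, slow and fast fibres, adipocytes, endothelium and macrophages. Of 190 list entries 179 had a named probe. Values by mouse are given for members past the threshold and, in each role group, for the member with the smallest p with age and with diet. Other genes of the pathway are named where past the threshold, and otherwise by the smallest p.

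The procedure was tested on simulated data in which 100 of 8943 genes had a log2 change of 0.5 and another 100 a change of 1: 77% and 96% were recovered with age, 71% and 96% with diet, and 65% and 91% for restricted against young. False calls were 9 of 182, 8 of 175 and 10 of 166. The simulated noise was independent between genes and had the same SD in every group, unlike the members here, so these shares may not hold for them. Mice with the same number in different groups did not deviate together (correlations from -0.24 to 0.17 over 6 pairs with age, and from -0.14 to 0.15 and -0.25 to 0.19 over 5 pairs with diet and for restricted against young), so the numbers were not taken as pairs. Alternatives changed the background correction, scaling, the authors' values, the detection filter, the use of arrays and chips, the probes of a gene, the replicate block, the prior, the samples in the fit and covariates, or left out each mouse. Figures were drawn with matplotlib 3.10.9.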

Additional observations from a re-analysis of the deposited data

Results flagged for a closer look

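In 96 groups of values (32 members in 3 groups), 2 held a mouse far from the others of its group by Dixon's criterion at the 95% level, which flags about 1 in 20 groups by chance. Both were restricted mouse 5. For Lpl, lipoprotein lipase, it stood at 14.00 on the log2 scale, with the nearest restricted mouse at 14.27. For Acaa2, a mitochondrial thiolase, it stood at 10.46, with the nearest at 10.77. Restricted mouse 5 was also the lowest of its group in 19 of the 32 members, and its slow fibre marker mean was -1.16 where the other restricted mice stood between 0.71 and 1.51.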

How the results depend on the processing

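Over 14 alternative settings and 17 fits that each left out 1 mouse, the age count of members called (1, Acsl6) became 0 with no detection filter and in the fit on the 2 groups alone. The diet count (0) became 1 with the chip as a fixed block over 24 arrays, by Acad9. The restricted against young count (3) became 1 with no detection filter. Leaving out single mice gave counts from 0 to 1 with age, 0 to 1 with diet and 1 to 4 for restricted against young. The median of the members for restricted against young became -0.16 with the slow fibre markers as a covariate, and the other medians moved by less than the spread between mice. With the replicate block (mouse numbers as a block) the counts were 1, 0 and 3 and no call on a named member changed, while over all genes the calls numbered 107, 88 and 244 against 184, 284 and 421. The diet direction of Etfa was reversed on its other probes (-0.018 on both). Of the values of single named members, 485 kept their direction and side of the threshold, 32 lost their call, 2 gained one and 2 reversed. In a fit on the 2 groups alone 24 genes of all tested passed with diet, and with no filter 95, 198 and 273 genes passed. Scaling to the 75th percentile moved the median of all genes by 0.04, -0.01 and 0.03 and changed the sign of 9, 0 and 4 members. The cause of these changes was not tested. The number of mice limits what could be detected: the median 95% interval reached 0.23 to 0.24 either side of a member's log2 difference.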
